A study of Rattus norvegicus with 36 samples.

Results

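The comparison described here set L5 dorsal root ganglia taken 50 days after ligation of the L5 spinal nerve in rats against ganglia of sham-operated rats taken at the same time. It was chosen by array title and comprised 12 of the 36 arrays of the study: on each of 3 chip types (Affymetrix RG_U34 A, B and C, which carry different probe sets) 2 arrays held the L5 pool and 2 held the sham pool. Each pool combined ganglia of 30 rats where the labels give a number, and the chip B sham labels at 50 days give none. The sham pool mixed L4 and L5 ganglia, so segment differences of uninjured ganglia cannot be told apart from the effect of the ligation. The study also measured both kinds of pool at 28 days and the uninjured L4 ganglia of operated rats at both times. No strain, sex or age was stated in the labels used here. On chip B 1 sham array was titled 28 days and described as 50 days. It was grouped by its title, and counting it at 50 days gave 528 higher and 390 lower probe sets, against 518 and 399 without it.

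A dorsal root ganglion holds the cell bodies of sensory neurons together with satellite glia, Schwann cells, macrophages and vessels. Tying off the spinal nerve cuts the axons of L5 neurons beyond the ganglion and is used as a rat model of neuropathic pain. Axon injury is known to change the neuropeptides, ion channels and transcription factors that these neurons make, and to draw immune cells into the ganglion.

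The 2 arrays of a pool were hybridised with the same RNA pool, so there was 1 pool per side, and the spread between arrays is technical. No test of the condition was possible and no p-value is given. A probe set was called when the means of the 2 pools differed at least 2-fold and both arrays of one pool lay beyond both arrays of the other. Differences are L5 minus sham on a log2(signal + pseudocount) scale, and the gap is the distance between the nearest arrays of the 2 pools on that scale. The technical pairs correlated at r = 0.88 to 0.92 for L5 and 0.928 to 0.947 for sham across tested probe sets of a chip. On chip A, 10.2% of probe sets differed at least 2-fold between the 2 L5 arrays and 6.5% between the 2 sham arrays.

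The L5 pool and the sham pool also differed in array-level measures. Median signals were 65.2 to 72.8 on the L5 arrays against 56 to 56.7 on the sham arrays of chip A, 85.1 to 86.7 against 76 to 76.3 on chip B, and 91 to 91.8 against 81.5 to 84.3 on chip C. Spiked hybridisation controls averaged 1177 to 1626 on the L5 arrays and 642.5 to 1287 on the sham arrays. The 3'/5' signal ratio of GAPDH, a measure of RNA and labelling quality, was 2.988 to 5.134 on L5 arrays and 5.1 to 8.519 on sham arrays. The part of these array differences in the results below was not tested. Uchl1, Nefl, Snap25 and Prph, bright members of the general neuron markers, had signals between 3391 and 18900.3 on every L5 and sham array of the chip that carries them. RNA of these genes was thus abundant in both pools. Other members were dim, such as Elavl2 with 43.3 and 66.1 on the L5 and 68.1 and 65.5 on the sham arrays.

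**Figure D1:**
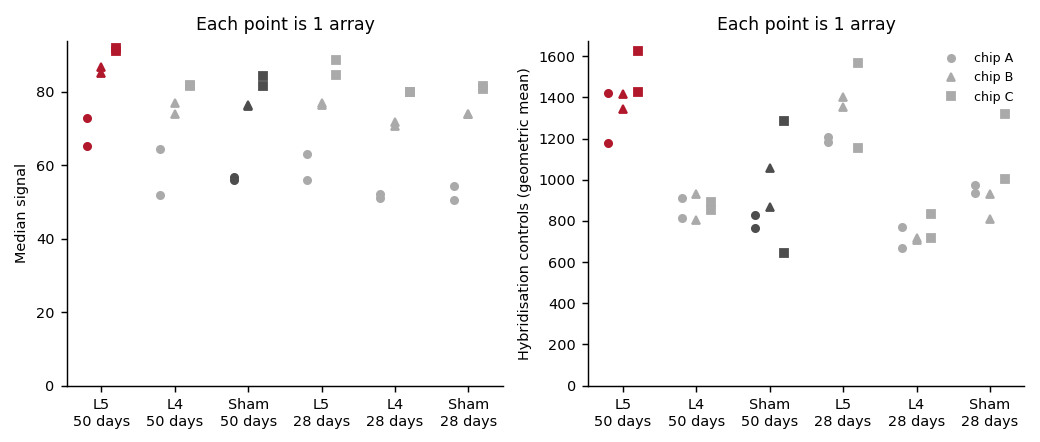
Median signal (left) and geometric mean signal of the spiked hybridisation controls (right) of all 36 arrays, by pool and day; each point is 1 array and its shape gives the chip type. The L5 arrays at 50 days (red) lay above the sham arrays at 50 days (dark grey) of the same chip type in both measures.

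Of 15721 probe sets tested on the 3 chips, 518 (3.29%) were higher and 399 (2.54%) lower in L5 ganglia. They named 314 genes that were higher and 315 that were lower. Chip A held 253 of the higher probe sets, 4.82% of those tested on it, chip B 143 (2.73%) and chip C 122 (2.33%). The lower ones were spread more evenly, with 140 (2.67%), 123 (2.35%) and 136 (2.6%) on chips A, B and C. The split of calls turned with the scaling of the arrays: 56.5% of calls were higher as processed here, 41.3% with quantile normalization, 30.3% with median centring and 2.31% when arrays were scaled to their hybridisation controls. The last of these moved the median of all probe sets to -0.55 on the log2 scale, against 0.03 here, so each difference below is relative to the average level of an array. Most calls were small: the median size was 1.23 among higher and 1.25 among lower probe sets, and 23 and 18 passed 4-fold. At any size, the arrays of the pools did not overlap for 28.9% of probe sets with L5 higher and 25.2% with L5 lower. The nearest arrays of the pools were themselves 2-fold or more apart for 114 higher and 128 lower probe sets.

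The calls depended on brightness. Among the dimmest quintile of probe sets by mean signal 7.66% were called higher and 3.56% lower, while among the brightest quintile 0.7% were called higher and 1.75% lower. The median difference of all probe sets ran from 0.20 in the dimmest quintile to -0.18 in the brightest. The same measure ran from 0.08 to -0.08 in the separate pools of 28 days. The part of brightness in the calls was not tested.

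**Figure D2:**
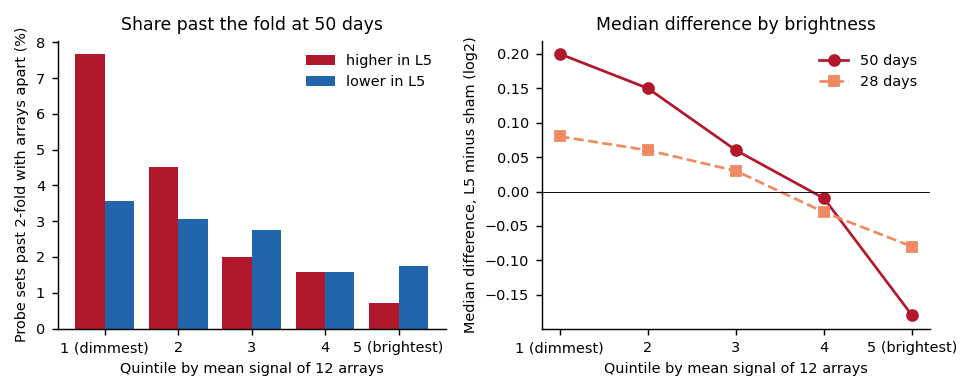
Left, percent of probe sets called higher (red) and lower (blue) in L5 against sham ganglia at 50 days, in quintiles by mean signal over the 12 arrays of a chip type. Right, median L5 minus sham difference of each quintile at 50 and at 28 days (log2). The higher calls were concentrated among dim probe sets, 7.66% in the dimmest quintile and 0.7% in the brightest.

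Neuropeptides of injured sensory neurons and the injury-linked transcription factor Atf3 were among the genes with clear separation. Vip encodes vasoactive intestinal peptide. Its signal was 300.0 and 302 on the L5 arrays against 47.1 and 30.2 on the sham arrays, a difference of 2.46 (5.51-fold), with the nearest arrays 2.25 apart. Its second, dimmer probe set had signals of 46.7 and 69.3 against 2.7 and 26.4 and was called too (1.5). Npy encodes neuropeptide Y, and its signal was 357 and 203 in L5 and 68.5 and 62.3 in sham ganglia (1.85, 3.62-fold). Both arrays of L5 lay above both sham arrays for both peptides.

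Gal, which encodes galanin, lay just past the threshold. Its signal was 131 and 223 in L5 against 70.2 and 86.1 in sham ganglia (1.02, 2.03-fold). Without the second L5 array the difference was 0.67, and without the first sham array it was 0.90. It was 0.86 with quantile normalization, 0.78 with median centring and 0.40 scaled to hybridisation controls. Crh, which encodes corticotropin-releasing hormone, was called lower at 6.7 and 45.6 against 60.6 and 66.3 (-1.17), and stood at -0.38 without the first L5 array.

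Counts over the gene lists take only the brightest probe set of a gene, and 43 dimmer probe sets of 38 list genes were called as well, 23 higher and 20 lower. Of 5 injury-induced neuropeptides tested, 3 were called higher and 1 lower, where 2.43% of all genes were called higher and 2.55% lower by their brightest probe set. The median of the list was 1.02, against -0.01 over all genes. Of 7 sensory neuropeptides, which mark uninjured nociceptors, 0 were called and the median was -0.40. Tac1, the substance P precursor, had 1711 and 2199 in L5 and 2595.5 and 2735 in sham ganglia on its brightest probe set (-0.45). A dimmer Tac1 probe set was called lower (-1.11), at 118 and 196 against 355 and 333. Calca, the precursor of CGRP, stood at -0.40 and Sst, somatostatin, at -0.44, and for both the L5 and sham arrays overlapped. Pdyn, prodynorphin, lay the other way at 1211 and 1051 against 717 and 656 (0.71), without reaching 2-fold.

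Among 23 axon injury and regeneration genes, Atf3 and Tuba1a were called higher and 0 lower by the brightest probe set, and dimmer probe sets of Stat3 (1.13) and Bdnf (1.05) were called higher where their brightest stood at -0.14 and -0.18. The list's median was 0.20, 0.04 with quantile normalization, and it turned to -0.04 with median centring and to -0.45 scaled to hybridisation controls. Atf3, a stress-induced transcription factor, had signals of 258 and 374 in L5 and 114 and 93.1 in sham ganglia (1.48, 2.80-fold), and stood at 0.83 when scaled to hybridisation controls. Tuba1a, an alpha-tubulin of growing axons, stood at 1.13 and fell short without the first L5 array (0.87) or the second sham array (0.56). Its signals were 294 and 198 in L5 and 158 and 61.7 in sham ganglia.

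Several classical regeneration genes were not called. Gap43, a growth cone protein, had signals of 1645 and 1730.2 in L5 against 1362 and 1484 in sham ganglia (0.25). Jun, the AP-1 transcription factor subunit, had 114 and 130.4 against 127 and 202.5 (-0.37) on its brightest probe set, and its other 3 probe sets stood between 0.27 and 0.61. Reg3b, a secreted protein of injured neurons, stood at -0.00, with overlapping arrays. The brightest probe set of Sprr1a, a small proline-rich protein of regenerating axons, had 745 and 666 in L5 and 438 and 445 in sham ganglia (0.66), and a dimmer one was called higher (1.38). Anxa1 (0.72), Arg1 (0.88) and Fst (0.90) were higher without being called.

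The proximal promoters of 6 genes are shown because all 6 were called higher at both 50 and 28 days on a probe set and they hold, or for Npy lack, the letters of response elements that bind CREB or AP-1 factors. The sequences are from the RefSeq annotation of the rat assembly GRCr8, read along the gene's strand from 200 to 51 bases before the transcription start. Capitals mark the core of the cAMP response element, TGACG or its reverse complement CGTCA, in Vip, Gal and Chat, and the AP-1 letters TGANTCA in Sprr1a and Cxcl14. Vip lies at chr1:44470280-44470429 (plus strand), Gal at chr1:210084623-210084772 (minus), Chat at chr16:7723467-7723616 (minus), Sprr1a at chr2:180752676-180752825 (minus), Cxcl14 at chr17:8322950-8323099 (plus) and Npy at chr4:80211911-80212060 (plus).
Vip: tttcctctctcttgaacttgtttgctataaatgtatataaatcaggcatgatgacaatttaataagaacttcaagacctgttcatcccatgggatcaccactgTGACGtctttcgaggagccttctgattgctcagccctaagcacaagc
Gal: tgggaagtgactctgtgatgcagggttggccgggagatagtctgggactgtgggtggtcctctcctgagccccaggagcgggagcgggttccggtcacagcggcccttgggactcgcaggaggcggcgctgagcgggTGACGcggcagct
Chat: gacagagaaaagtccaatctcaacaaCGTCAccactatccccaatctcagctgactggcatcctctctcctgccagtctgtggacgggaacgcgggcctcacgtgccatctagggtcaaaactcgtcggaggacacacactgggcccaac
Sprr1a: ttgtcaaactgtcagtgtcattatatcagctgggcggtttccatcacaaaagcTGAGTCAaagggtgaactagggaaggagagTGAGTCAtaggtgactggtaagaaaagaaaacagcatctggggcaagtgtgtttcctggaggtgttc
Cxcl14: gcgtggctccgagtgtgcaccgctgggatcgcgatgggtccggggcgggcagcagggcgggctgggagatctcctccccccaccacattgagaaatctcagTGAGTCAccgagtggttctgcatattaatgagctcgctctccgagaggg
Npy: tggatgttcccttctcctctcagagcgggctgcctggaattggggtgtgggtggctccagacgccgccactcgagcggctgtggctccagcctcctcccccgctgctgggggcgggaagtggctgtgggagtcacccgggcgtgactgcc

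In the 250 bases before the start, searched on both strands, the letters TGANTCA stood in 6 of 31 genes called higher at both days that had a promoter entry (19.4%). They stood in 1 of 43 genes lower at both days (2.33%) and in 330 of 6896 tested genes (4.79%). The 6 genes were Crp, Cxcl14, Naglt1, Samd13, Slfn2 and Sprr1a, named because they make up this count. Among all genes higher at 50 days TGANTCA stood in 19 of 252 (7.54%), and among all genes lower at 50 days in 9 of 276 (3.26%). The cAMP core letters TGACG stood in 25.8% of genes higher at both days, 25.6% of genes lower at both days and 29.4% of tested genes. In Sprr1a 2 AP-1 matches began 147 and 117 bases before the start. The Vip match began 97 bases, the Gal match 63 bases and the Chat match 174 bases before the start. The 2 motifs overlapped in 3 of the promoters searched. A match says only that these letters are present.

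**Figure D3:**
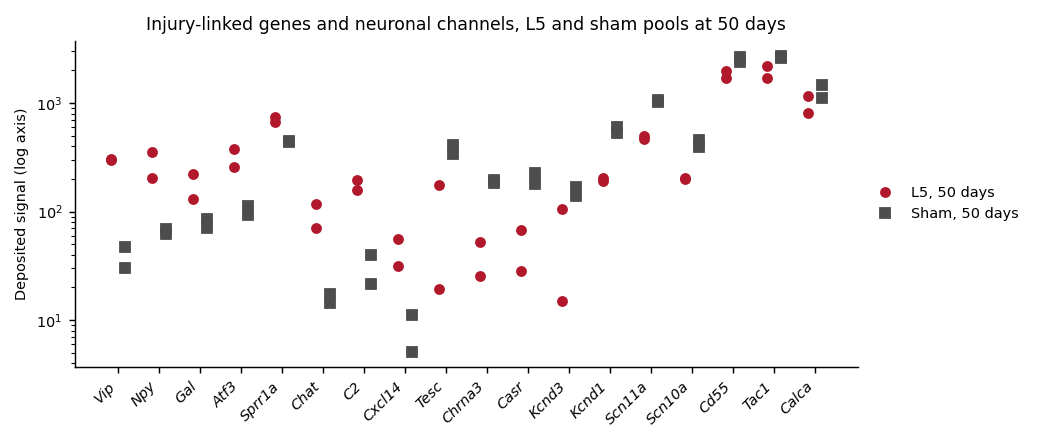
Deposited signal on a log axis of 18 genes on the 2 L5 arrays (red circles) and 2 sham arrays (dark squares) at 50 days; each gene is shown by 1 probe set. The Vip arrays of L5 lay at 300.0 and 302 against 47.1 and 30.2 in sham, while the Calca arrays of the pools overlapped.

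Scn11a and Scn10a, sodium channel genes of nociceptors, were called lower. Scn11a, which encodes Nav1.9, had signals of 461 and 492 in L5 against 1023 and 1070.5 in sham ganglia (-1.11), and its nearest arrays were 1.04 apart. Scn10a, which encodes Nav1.8, had 198 and 205 against 452 and 390.2 (-1.01). Its difference was -0.99 without the first L5 array and -0.91 without the first sham array. For both channels the technical pairs lay close together and the pools did not overlap.

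Of 10 sodium channel genes 2 were called lower and 1, the muscle-type channel Scn4a, higher (1.21), at 212 and 179.7 against 60.6 and 98.4. Scn4a stood at 0.91 without the first sham array, 0.96 with median centring and 0.57 scaled to hybridisation controls. Scn1a, found in large-diameter neurons, had 156 and 208 in L5 and 366 and 369.7 in sham ganglia (-0.98), just short of the threshold. The beta subunits Scn4b (-0.56) and Scn3b (-0.51) were lower with arrays apart, and Scn9a, which encodes Nav1.7, stood at -0.07 with overlapping arrays.

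Of 26 potassium channel genes 3 were called lower and 0 higher, and the median was -0.26. Kcnd1, an A-type channel subunit, had 206 and 192 in L5 and 603 and 533 in sham ganglia (-1.43), with nearest arrays 1.30 apart. Kcnd3, the related Kv4.3 subunit, had 15.1 and 106 against 167 and 138 (-1.51). Without the first L5 array it stood at -0.47, and its other probe set was not called (0.40). Kcnk1, a leak channel subunit, had 190.4 and 389.6 against 550.5 and 593 (-1.02), and stood at -0.53 without the first L5 array and -0.97 without the second sham array, and at -0.92 with the doubtful chip B sham array counted at 50 days. Kcns1, a modifier subunit of sensory neurons, was at -0.92, just short of the threshold.

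Calcium and transduction channels gave 0 calls in 8 and 8 genes by the brightest probe set. Dimmer probe sets of Cacna1a, a calcium channel pore subunit (-1.03), and of Asic2, an acid-sensing channel (-1.07), were called lower, where their brightest stood at 0.23 and 0.49. Cacna2d1, the calcium channel subunit that gabapentin binds, had 593 and 617 in L5 and 453 and 425 in sham ganglia (0.45). Trpv1, the capsaicin receptor, stood at 0.03 with overlapping arrays. P2rx3, the ATP-gated channel of nociceptors, was at -0.27.

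Among receptors, the nicotinic subunit Chrna3 was lower by a wide margin. Its signals were 25.7 and 52.8 in L5 and 195 and 185 in sham ganglia (-2.01), with nearest arrays 1.59 apart. The other 8 nicotinic subunits were not called and lay between -0.40 and 0.70. The calcium-sensing receptor Casr had 67.4 and 28.5 against 228 and 180.0 (-1.90). Oprm1, the mu opioid receptor, was called higher (1.11) at 58.0 and 96.7 against 18.9 and 39.5, but its other probe set lay below 0. The called one stood at 0.80 without the second L5 array, 0.75 without the first sham array, 0.87 with quantile normalization or median centring and 0.58 scaled to hybridisation controls. Casr and Oprm1 were the called members among 25 pain-related and sympathetic G protein-coupled receptors.

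The 19 glutamate and GABA receptor genes gave 0 calls. Gabbr2, a GABA-B subunit, had 444.5 and 440.4 in L5 against 821 and 944 in sham ganglia (-0.97), while its partner Gabbr1 had 1429 and 1396.5 against 1383 and 1427 (0.01). Ntrk2, the BDNF receptor TrkB, was called lower (-1.05) at 196 and 240.1 against 466 and 473, and stood at -0.92 without the first L5 array. It was the called member among 20 neurotrophic factors and receptors. Ret, the signalling receptor of the GDNF family, was at -0.63 with arrays apart.

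Among the brightest probe sets of all genes 51% lay below 0 and 28.3% did so with arrays apart, and among genes of the brightest quintile 70.3% and 51.3%. Of 9 granins and prohormone-processing enzymes 8 lay below 0, 7 with arrays apart, and 0 were called, with a median of -0.85 (-0.67 with quantile normalization). Pcsk1n, an inhibitor of prohormone convertase, had 1135 and 1071 in L5 and 1932 and 2265 in sham ganglia (-0.91). The granin Chgb stood at -0.86 and the amidating enzyme Pam at -0.85. Vgf, a secreted neuropeptide precursor, went the other way at 361 and 284 against 157 and 235 (0.70).

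Of 26 synaptic vesicle release genes 20 lay below 0, with a median of -0.21, as for genes of the brightest quintile (-0.21). Of these 1 was called lower and 1 higher, and a dimmer Syn2 probe set was called lower (-1.07). Rab3c, a vesicle GTPase, was called lower at 9.4 and 32.6 against 81.6 and 107.5 (-1.75). Its other probe set lay above 0. Unc13a, a vesicle priming factor, was called higher at 65.1 and 89.3 against 16.6 and 29.0 (1.35), and stood at 0.82 scaled to hybridisation controls. Nsf, the fusion ATPase, was at -0.90 and Vamp1, a vesicle SNARE, at -0.56, both with arrays apart.

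A few calcium-binding, cytoskeletal and adhesion genes were called lower, where 2.55% of all genes were by their brightest probe set. The list medians were -0.01 (EF-hand proteins), -0.14 (cytoskeleton and growth cone) and -0.05 (axonal adhesion). By the brightest probe set Tesc was the only called EF-hand gene, with the others between -0.55 and 0.92. Cntn1 was the only called adhesion gene. The cytoskeleton list also holds Tuba1a, called higher. Tesc, an EF-hand protein, had 19.5 and 176 in L5 and 414.5 and 336 in sham ganglia (-2.31), so its L5 arrays differed widely but both lay below sham. It stood at -1.03 without the first L5 array, -3.58 without the second and -0.89 without the first array of both pools. Dpysl4, a growth cone protein, had 49.1 and 129 against 259.5 and 285 (-1.60). Cdk5, a neuronal kinase, had 34.5 and 55.5 against 121 and 166 (-1.44), and the adhesion molecule Cntn1 had 28.5 and 22.2 against 102 and 81.4 (-1.45). The neurofilament genes did not share this direction: Nefl was at 0.46, Nefm at 0.27 and Nefh at 0.13, and Ina at -0.81, with 0 of 7 called.

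Among sympathetic and catecholamine genes, Slc18a2 and Slc18a1, the vesicular monoamine transporters, were called higher in a list of 7 with a median of 0.34 (-0.29 scaled to hybridisation controls). The other members did not share 1 direction. Th stood at 0.12 with overlapping arrays. Maoa (-0.58) and Maob (-0.19) were lower, and Pnmt (0.34) and Slc6a2 (0.72) higher, all with arrays apart. Slc18a1 had 290.3 and 328 in L5 and 148 and 131 in sham ganglia (1.04). Slc18a2 had 130.2 and 78.3 against 9.9 and 68.7 (1.41), with nearest arrays 0.16 apart. Slc18a2 stood at 0.49 without the first sham array, and Slc18a1 at 0.96 without the second L5 array and 0.97 without the second sham array. The glycine transporter Slc6a9 was called too (1.20), at 117.5 and 227 against 64.8 and 63.1, and stood at 0.76 without the second L5 array.

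Where 49% of all genes lay above 0, all 9 genes of tetrahydrobiopterin, nitric oxide and arginine metabolism did. Their median was 0.61, 0.02 scaled to hybridisation controls. Gch1, the first enzyme of tetrahydrobiopterin synthesis, was called at 151 and 128 against 93.5 and 38.1 (1.05), and stood at 0.94 without the first L5 array, 0.52 without the second sham array and 0.86 with quantile normalization. Pts, the next enzyme, had 97.0 and 85.3 in L5 and 57.9 and 52.5 in sham ganglia (0.61). Nos2, inducible nitric oxide synthase, was at 0.86. Most of these probe sets were dim, and without 1 array in turn the list median ran from 0.29 to 0.69.

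Of 14 genes of insulin-like growth factors, their receptors and binding proteins 2 were called by the brightest probe set. Irs2, an adaptor of the insulin receptor, had 188 and 167 in L5 against 38.6 and 45.2 in sham ganglia (1.80), and the receptor Insr had 159 and 71.1 against 31.9 and 21.6 (1.61). The other 12 members of the list lay between -0.42 (Igfbp7) and 0.79 (Igfbp4). A dimmer probe set of Igf1, insulin-like growth factor 1, was called higher at 369.6 and 109 against 39.3 and 16.0 (2.48), where its brightest stood at 0.34, and a dimmer one of Igfbp3 was called too (1.10). Among cytokines and chemokines Cxcl14 had 31.4 and 55.6 in L5 and 5.1 and 11.2 in sham ganglia (1.41), and was one of 2 Cxcl14 probe sets higher at both days. The cytokine Il13 (1.36) stood at 0.45 without the second sham array, and the growth factor Tgfb3 (-1.06) at -0.11 without the second L5 array. The other 2 Tgfb3 probe sets lay above 0.

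The 20 genes with the widest gaps among those higher were, in order, Plpp2, Vip, Cyp27b1, Il17ra, Thy1, Ncr1, Sash3, Cyp2d3, Nucks1, Ttr, Copz2, Irs2, C2, Rnase1, Traf4, Egfl7, Chat, N5, Npy and Aplnr. Plpp2, a lipid phosphatase, had signals of 262 and 274 in L5 and 29.1 and 41.4 in sham ganglia (2.56, 5.89-fold). Cyp27b1, the enzyme that makes active vitamin D, had 84.1 and 105 against 2.6 and 8.3 (2.57). Chat, which makes acetylcholine, had 118 and 70.9 against 14.5 and 17.5 (1.86), and complement C2 had 157 and 197 against 39.7 and 21.5 (2.03). None of the 20 lay in the brightest quintile, and 15 lay in the 2 dimmest quintiles. Gaps ran from 1.40 to 2.34, so all kept a 2-fold difference when any 1 array was left out.

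Il17ra, the interleukin 17 receptor and also among these 20, had 162 and 164 in L5 and 26.3 and 27.5 in sham ganglia (2.02). Ncr1, a natural killer cell receptor, had 65.1 and 93.7 against 8.6 and 7.7 (2.12), and Sash3, a lymphocyte adaptor, had 149.7 and 128 against 12.2 and 23.0 (2.16). The called Thy1 probe set had 351 and 443 against 79.8 and 48.4 (2.36), but it was 1 of 4 for that surface glycoprotein and the brightest had 5221 and 6064 against 7017.5 and 6059 (-0.21). For some of these genes the uninjured L4 ganglia at 50 days were near the L5 level: Nucks1, a nuclear protein, had 136.5 and 136 in L5, 125 and 155 in L4, and 13.9 and 26.3 in sham ganglia. Nucks1 was no longer called with the doubtful chip B sham array counted at 50 days (1.33). Traf4, a signalling adaptor, had 285 and 321 in L5, 216.5 and 203.5 in L4, and 88.0 and 33.9 in sham ganglia.

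The 20 widest gaps among genes lower were those of Dgkg, Adarb1, Snx19, Paf1, Rcan2, Snrnp200, Dact3, Ipo13, Cenps, Rpp25l, Emc9, Srm, Chrna3, Azi2, Lactb2, Dsp, Mrpl14, Eif2d, Xab2 and Lrfn5. Dgkg, a diacylglycerol kinase, had signals of 6.5 and 5.0 in L5 and 87.9 and 85 in sham ganglia (-2.42). Adarb1, an RNA editing enzyme, had 16.0 and 18.6 against 109 and 127 (-2.12). Rcan2, a calcineurin regulator, had 23.2 and 29.5 against 152 and 187 (-2.02). The spliceosomal helicase Snrnp200 stood at -1.87 and the initiation factor Eif2d at -1.56.

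The L4 ganglia of operated rats, set beside the same sham arrays, were near sham for several of these genes: Dgkg had 101.5 and 99.6, Adarb1 103 and 93.4, and Snrnp200 267.5 and 237 in L4. Snx19, a sorting nexin, had 26.8 and 29.8 in L5, 24.7 and 85.7 in L4, and 180.0 and 158 in sham ganglia. None of the 20 lay in the brightest quintile, and 13 lay in the 2 dimmest. Of 7 genes with several probe sets, 2 had all of them below 0, against 6 of 8 above 0 among the widest gaps higher.

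The following genes of the brightest quintile were chosen after their values were seen. Prune2, a neuronal protein, had 1154 and 1092 in L5 and 3276 and 2857 in sham ganglia (-1.44). Map1b, a microtubule-associated protein of axons, had 1225 and 1307 against 3244 and 2753 (-1.23), and 2 dimmer probe sets were called lower too, but its brightest probe set stood at 0.65. Rbfox3, the neuronal splicing factor NeuN, had 1299 and 1396 against 2733 and 2695 (-1.0), with tight pairs on both sides. It stood at -0.95 without the first L5 array, -0.99 without the first sham array and -0.79 with quantile normalization.

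Other bright falls were those of the vacuolar ATPase subunit Atp6v1b2 (773 and 902 against 2078 and 2085), the G protein subunit Gnao1 (254 and 230.1 against 559.6 and 604) and dynein heavy chain Dync1h1 (360.4 and 397 against 857 and 707). The brightest Gnao1 probe set stood at -0.54 and was not called, and the other Atp6v1b2 probe set lay above 0. Bright genes that were higher were fewer: Zyx, a focal adhesion protein, had 2345 and 2494.5 in L5 and 1221 and 867 in sham ganglia (1.22). Of 3 Zyx probe sets 1 lay below 0. Gnas, which encodes the stimulatory G protein subunit, was called in both directions, with 11661 and 7941 against 4027 and 3688 on one probe set (1.32) and 366 and 308 against 783 and 732.5 on another (-1.14). Cd55, a complement regulator and nociceptor marker, was called lower on 2 of 7 probe sets (-1.52 and -1.19), and its brightest had 1956 and 1709.6 against 2383 and 2647 (-0.45).

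Of 16 general neuron markers tested, 14 lay below 0, 11 with arrays apart and 1 (Rbfox3) called, with a median of -0.40 against -0.21 for genes of the brightest quintile. Their summed signal was 41722 and 41386 on the L5 arrays and 47867 and 56541 on the sham arrays. In pooled tissue, fewer cells of a type and less RNA per cell cannot be told apart. Satellite glia markers had a median of -0.37 with overlapping sums (11513 and 12695 against 12057 and 11476), and myelinating Schwann cell markers had one of 0.21 (-0.49 scaled to hybridisation controls).

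Of 18 macrophage markers by their brightest probe set, 12 lay above 0, 1 was called higher (Cd4, 1.25) and 1 lower (Gpnmb, -1.15). Over all genes 49% lay above 0. The median of the macrophage markers was 0.12, and it turned to -0.09 with median centring and -0.42 scaled to hybridisation controls. The summed signal was 3130 and 2975 in L5 and 2864 and 2845 in sham ganglia, and none of the 18 was listed at 0. Cd68, a lysosomal macrophage protein, had 535 and 336 against 437 and 398 (0.02), while Fcer1g, an Fc receptor chain, had 343 and 321 against 163 and 199 (0.82). A dimmer probe set of Cd14, a receptor for bacterial lipopolysaccharide, was called higher at 179.6 and 143.3 against 50.3 and 11.3 (2.15), where its brightest stood at 0.23. Cd4 stood at 0.86 without the first sham array, and Gpnmb at -0.77 without the first L5 array and -0.76 without the first sham array.

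Where 25.9% of all genes lay above 0 with arrays apart, all 5 T cell markers tested did. Their summed signal was 854 and 784 in L5 and 490 and 486 in sham ganglia, and their median 0.61, -0.06 scaled to hybridisation controls. Cd3e, a T cell receptor chain, had 256 and 309 against 158 and 151 (0.79). Cd3g was called (1.28) at 135 and 46.8 against 42.8 and 14.1, and stood at 0.62 without the first L5 array and 0.75 without the second sham array. Gzmb, the cytotoxic protease granzyme B, was at 0.31. None of the 5 was listed at 0, all were dim or of middle brightness, and the part of brightness in this shift was not tested.

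Genes of antigen presentation gave 0 calls in 21. The class II genes RT1-Da (0.46) and RT1-DMa (0.92) and the class I gene RT1-S3 (0.91) were higher with arrays apart, while B2m had 1391.5 and 1624 in L5 and 1842 and 1472 in sham ganglia (-0.13). Cd74, the class II invariant chain, stood at -0.09 on its brightest probe set and was called higher on another (1.5). Of 9 complement components 7 were higher with arrays apart, against 25.9% of all genes, and C2 was the called one. The complement median was 0.37, -0.17 scaled to hybridisation controls. C4a had 220.1 and 217 against 127.5 and 126 (0.70), but C1qa stood at -0.06 and C1s at -0.03.

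Skeletal muscle markers, which would show tissue carried over at dissection, had summed signals of 5788 and 5269 in L5 and 4519 and 4610 in sham ganglia. Their median was 0.22 (0.00 with median centring, -0.42 scaled to hybridisation controls). Of 20 muscle markers 16 lay above 0, where 49% of all genes did, and 1, the calcium pump Atp2a1, was called lower (-1.03). Fat cell markers summed to 2186 and 2100 against 1587 and 1304, with a median of 0.30 (-0.35 scaled to hybridisation controls). Single bright genes weighed in both sums. Lep gave 1220 and 1404 against 989 and 604 of the fat cell sums, and Tpm1 1811 and 1480 against 1178 and 1070 of the muscle sums. The part of other tissue in the results was not tested.

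Of 69 oxidative phosphorylation genes 55 lay below 0, 43 with arrays apart, and 0 were called by the brightest probe set (median -0.33). Dimmer probe sets of Cox4i1 (-1.08), Uqcrc2 (-1.04) and Atp5po (-1.0), subunits of the respiratory chain and ATP synthase, were called lower, and the brightest of Cox4i1 stood at 0.33. The ATP synthase subunit Atp5mc3 had 607 and 777 in L5 and 1397 and 1349.8 in sham ganglia (-0.98). Of 31 constitutive proteasome subunits 24 lay below 0, 20 with arrays apart, with a median of -0.34 and 1 called (Psmd9, -1.43). Dimmer probe sets of Psma6 (-1.18) and Psmd1 (-1.05) were called lower too, while the other Psmd9 probe set lay above 0. Psmd4, a ubiquitin receptor of the proteasome, had 501 and 545 against 936.5 and 958.5 (-0.84).

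Of 24 cholesterol synthesis genes 21 lay below 0 (median -0.36). Srebf1, a transcription factor of lipid synthesis, was called lower at 123 and 59.9 against 308 and 229 (-1.44), but its other probe set lay above 0. The kinase Mvk was called lower too (-1.14), and stood at -0.85 without the first L5 array and -0.73 without the first sham array. Dimmer probe sets of Cyp51 (1.47) and Idi1 (1.17) were called higher and one of Lss (-1.04) lower. These medians kept their sign under all 3 other scalings, beside a median of -0.21 for genes of the brightest quintile. Those scalings moved the median of all probe sets down from 0.03, to -0.03, -0.13 and -0.55. A negative median was thus likely to stay negative, and 23 of 24 lists with one did, so the kept sign says little. The 51 cytosolic ribosomal proteins had a median of 0.06, -0.12 with median centring and -0.62 scaled to hybridisation controls, and 1 call, Rpl30 (1.02). Rpl30 stood at 0.58 without the first L5 array and 0.61 without the first sham array.

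**Figure D4:**
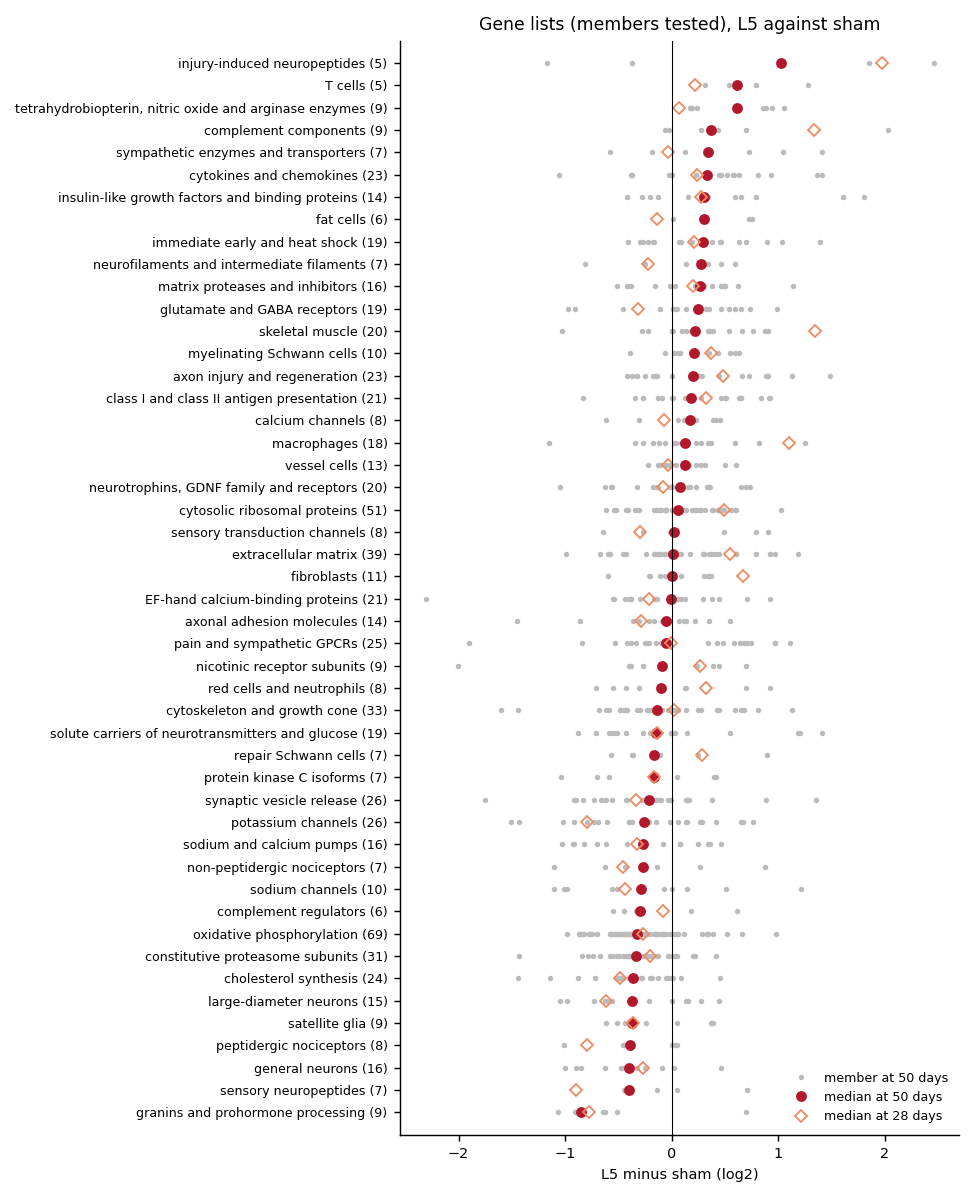
Differences between L5 and sham ganglia of 48 gene lists on the log2 scale; grey points are members at 50 days by their brightest probe set, red circles the list median at 50 days and open diamonds that at 28 days, and the number tested is in brackets. Granins had the lowest median at 50 days (-0.85) and injury-induced neuropeptides the highest (1.02); of the lists with a positive median, 2 kept that sign under all 3 other scalings of the arrays.

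The comparison at 28 days used other pools and shares no array with that at 50 days. Of the 518 probe sets higher at 50 days, 62 (12%) were also called higher at 28 days, where 2.79% of all probe sets were called higher, and they made up 14.1% of the 28-day calls. Of the 399 lower ones, 64 (16%) were also lower at 28 days, where 2.34% were, making up 17.4% of the 28-day calls. Opposite calls at 28 days were 6 (1.16%) of the higher probe sets, where 2.34% of all probe sets were called lower. They were 9 (2.26%) of the lower ones, close to the 2.79% of all probe sets called higher. From the dimmest to the brightest quintile the overlap among higher calls was 10.8%, 9.15%, 12.7%, 14% and 36.4%, the last being 8 of 22 probe sets. Of all probe sets, 4.74% in the dimmest and 1.72% in the brightest quintile were called higher at 28 days. Among the lower calls the overlap was 12.5%, 9.38%, 18.6%, 20% and 27.3%. Of all probe sets, 2.8% in the dimmest and 3.12% in the brightest quintile were called lower at 28 days.

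Of the 20 widest gaps higher, 6 were also called at 28 days (Vip, Ttr, C2, Rnase1, Chat and Npy), and of the 20 widest lower another 6 (Adarb1, Rcan2, Ipo13, Chrna3, Mrpl14 and Xab2). Plpp2 stood at 0.06 at 28 days and Dgkg at 0.05. The neuropeptides Vip, Npy and Gal were further from sham at 28 days. Vip differed by 2.46 at 50 and 2.98 at 28 days, Npy by 1.85 and 2.21, and Gal by 1.02 and 1.97. Crh, called lower, stood at -1.17 and -1.42. Tuba1a went the other way, at 1.13 and 0.97, as did Sprr1a, at 0.66 and 0.01 on its brightest probe set. For the sodium channels the differences were -1.11 at 50 and -1.64 at 28 days (Scn11a), and -1.01 and -1.66 (Scn10a). Atf3 stood at 1.48 and 1.56. No test of these differences between days was possible.

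Some lists differed between days by more than 0.5. The macrophage median was 0.12 at 50 and 1.10 at 28 days, with 1 and 10 of 18 markers called higher. The complement median was 0.37 and 1.33, the skeletal muscle median 0.22 and 1.34, with 0 and 11 of 20 members called higher, and the fibroblast median -0.00 and 0.67. Macrophage and muscle markers moved together at 28 days, and the part of either in other results was not tested. The median of granins was -0.85 and -0.78, and that of oxidative phosphorylation -0.33 and -0.27, so these were close at both days.

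**Figure D5:**
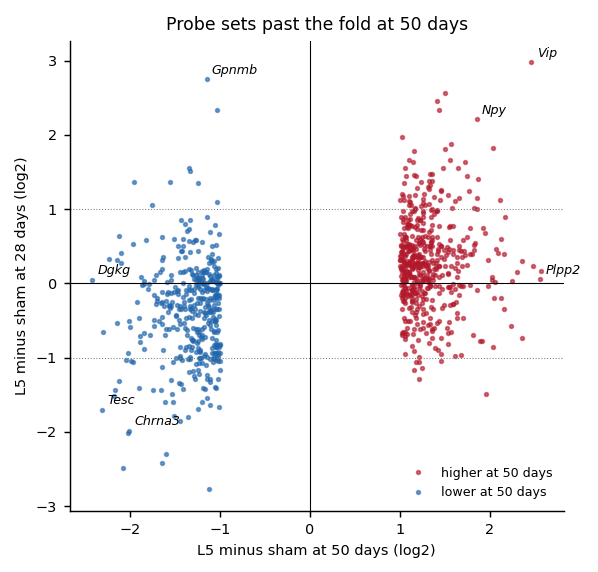
Each point is 1 probe set called at 50 days, with its L5 minus sham difference at 50 days (horizontal) and at 28 days (vertical), both log2; red, higher at 50 days, blue, lower. Most points lie within 1 of 0 at 28 days; Vip and Npy were far above it, Tesc and Chrna3 far below, and Gpnmb was lower at 50 and higher at 28 days.

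The remaining called members of the lists were dim or depended on 1 array. Nr4a3, an immediate early nuclear receptor, stood at 1.39 and at 0.78 without the first sham array, and its relative Nr4a2 at 1.03 and 0.25 without the second sham array. Nid1, a basement membrane protein, stood at 1.18 and at 0.64 without the second sham array, and the protease Mmp7 at 1.14 and 0.73 without the same array. Prkcz, an atypical protein kinase C, stood at -1.04 and at -0.65 without the first L5 array. In all, 26 of 81 called probe sets named by rule fell under 2-fold when some array was left out, and the other 55 stayed past it. The 81 include the 20 widest gaps in each direction. Their nearest arrays were over 2-fold apart, so leaving out 1 array could not bring them under it. The 26 were thus all among the other called list members. Of all the called probe sets named by rule, 8 of 78 tested lost the call with quantile normalization and 13 of 81 with median centring. Scaled to hybridisation controls 18 of 78 did. The probe sets of the widest gaps lost no call under these scalings where tested. Beside those given above, quantile normalization left Rpl30 at 0.97, Mmp7 at 0.91, Nr4a2 at 0.81 and Cd4 just short of the threshold (1.00). Median centring left Tuba1a at 0.99, Slc18a1 at 0.93, Mmp7 at 0.90, Gch1 at 0.81, Nr4a2 at 0.79, Rpl30 at 0.78 and Slc6a9 at 0.96, and it ended the separation of arrays for Slc18a2 (1.17), Il13 (1.11) and Cd3g (1.04). Scaling to hybridisation controls left Cxcl14 just short of it (1.00), Slc18a2 at 0.86, Nr4a3 at 0.84, Il13 at 0.76, Cd4 at 0.73, Slc6a9 at 0.59 and Nid1 at 0.47. The same scaling left Tuba1a at 0.67, Mmp7 at 0.55, Nr4a2 at 0.45, Gch1 at 0.43, Rpl30 at 0.37 and Slc18a1 at 0.35.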

How the data were processed

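Total RNA signals of rat dorsal root ganglia were taken from the deposited series tables of 3 chip types. The authors deposited linear intensity values, for which the submitters' processing notes name MAS5. The sources used here do not give the version. Detection calls were not used here. Each array was scaled to the trimmed mean of its chip type, leaving out 2% at each end, and log2(signal + pseudocount) was taken. The 20th percentile of a chip type's signals served as pseudocount (12.8, 17.7 and 20.2 on A, B and C), which shrinks the differences of dim genes. Spiked controls, and probe sets whose mean over 12 arrays lay under the 40th percentile, were left out, which left 15721 of 26379.

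Calls needed 2-fold and arrays apart. The number of arrays limits the precision. Gene names came from the platform annotation where a probe set had 1 gene (11770 tested, 8270 genes), and 0 symbols needed an update from a RefSeq table of GRCr8. The genes named were the 20 widest gaps in each direction, up to 4 called members of each of 48 gene lists and 22 genes in any case; uncalled list members and genes of the brightest quintile were chosen after their values were seen. Where several probe sets share a gene, the text gives the brightest, or the brightest called one in the ranking by gap. The members and lists were chosen with earlier results of these data known. The fold rule was tested on simulated arrays with 4-fold changes and the technical spread of the sham pairs. That test did not cover smaller changes or the wider spread of the L5 pairs. Alternatives were another pseudocount, filter and scaling, no separation of arrays, the chip B label, and leaving out arrays, the last for both pools together added after seeing the data. Python 3.11.15, pandas 2.3.3 and numpy 2.4.6 were used.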

Additional observations from a re-analysis of the deposited data

Results flagged for a closer look

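For 5 of the called probe sets named by rule, both L5 arrays lay on one side of both sham arrays at 50 days and on the other side at 28 days. The difference between the days was not tested, and the arrays of a pool are technical pairs. The L5 minus sham difference of Paf1, a subunit of an RNA polymerase II complex, was -2.10 at 50 and 0.27 at 28 days. That of Azi2, an adaptor of innate immune signalling, was -2.12 and 0.64. The insulin receptor Insr stood at 1.61 and -0.98. Atp2a1, the calcium pump of fast muscle, stood at -1.03 and 2.34: its signals at 28 days were 314 and 296 in L5 and 49.4 and 50.0 in sham ganglia. Gpnmb, a glycoprotein of macrophages, stood at -1.15 and 2.75, with 309 and 310.2 in L5 and 40.6 and 19.1 in sham ganglia at 28 days. Genes of the text that were not called showed the same turn by their brightest probe set. Nos2 stood at 0.86 at 50 and -0.64 at 28 days, Nefm at 0.27 and -0.44, Nefh at 0.13 and -0.70, Scn3b at -0.51 and 0.24, and Igfbp7 at -0.42 and 0.30.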

How the results depend on the processing

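No paired analysis was possible because the results come from no test and the array numbers mark technical arrays of 1 pool. With 1 pool a side, no spread between animals is measured, and sham pools hold L4 ganglia too. As processed here 518 probe sets were higher and 399 lower at 50 days, with 62 and 64 called the same way at 28 days. With the pseudocount at the 40th percentile these 4 counts were 201, 159, 19 and 25. Without the filter 1098 were higher, 99 of them at both days, and with the filter at the 60th percentile 180 were higher, 218 lower and 24 higher at both. Quantile normalization left 40 higher at both days. Median centring gave 299, 687, 32 and 135, and scaling to hybridisation controls 67, 2828, 7 and 571. Without 1 array, or without the same-numbered array of both pools, 633 to 993 were higher, 502 to 884 lower, 72 to 83 higher at both days and 71 to 90 lower at both. The count of higher probe sets was 859 without the second L5 array and 784 without the first sham array, and that of lower ones 822 without the second L5 array. Of 518 higher probe sets, 353 kept the call with quantile normalization, 299 with median centring and 67 scaled to hybridisation controls; of 399 lower ones, 386, 399 and 399 did. No result changed sign while called. Of 40 higher and 41 lower probe sets named by rule, 24 and 30 kept the call at the higher pseudocount. The cause of these changes was not tested.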

Other observations

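On chip C the spiked control CreX-3 followed the array number: its signal lay between 6605 and 12843 on the 6 arrays numbered 1 and between 20657 and 34199 on the 6 numbered 2. The uninjured L4 ganglia at 50 days stood between the pools for some genes with a wide gap: Cyp27b1 had signals of 84.1 and 105 in L5, 68.2 and 53.8 in L4 and 2.6 and 8.3 in sham ganglia. Cyp2d3, a cytochrome P450, had 177.5 and 189 in L5, 74.2 and 128 in L4 and 18.8 and 41.6 in sham ganglia. Chat had 118 and 70.9 in L5, 16.7 and 17.2 in L4 and 14.5 and 17.5 in sham ganglia, so its L4 arrays were beside the sham arrays. The L4 values share the sham arrays with the L5 comparison.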
